A study of Rattus norvegicus with 15 samples.

Results

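The comparison described here sets hepatocytes exposed to 1-naphthol beside hepatocytes that received only the vehicle, DMSO. Its members were chosen by sample title, which gave 3 arrays named 1-Naphthol and 3 named VC (vehicle control), 6 of the 15 arrays in the series. The cells were primary hepatocytes of male rats of the Wister strain (spelled as in the labels), bought frozen from KaLy-Cell. After 24 h in pre-culture, the 1-Naphthol cells had 30 µM of the compound for 24 h and the VC cells had DMSO for the same time. The series also holds Naphthalene, the parent compound without a hydroxyl group, 1,5-Naphthalenediol and 2,7-Naphthalenediol, which carry a pair of hydroxyl groups, each at 30 µM for 24 h on 3 arrays. Its title names read-across, the use of data on similar chemicals for one another, and liver toxicity. Each condition was run in 3 experiments that the submitters call independent, while donors, age and DMSO concentration are not given in the sources used. The p-values therefore measure the spread between these cultures, which may all come from the same cell lot.

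1-Naphthol is a metabolite of naphthalene and of the insecticide carbaryl, and the liver clears it mainly by coupling its hydroxyl group to glucuronic acid or sulfate. Flat aromatic compounds can bind the aryl hydrocarbon receptor (AhR), which pairs with ARNT in the nucleus and switches on Cyp1a1, Cyp1a2, Aldh3a1, Nqo1 and its own repressor Ahrr. Aromatic compounds that are oxidised to quinones react with thiols, and thiol-reactive compounds release the factor NRF2 from KEAP1, which raises genes of glutathione and NADPH supply. Both routes are known to act on drug-metabolising enzymes of rat hepatocytes.

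Gene spots well above background made up 58.0%, 58.2% and 57.8% on the DMSO arrays and 60.9%, 61.0% and 59.1% on the 1-Naphthol arrays. Every 1-Naphthol array was thus above every DMSO array in this share. Arrays of the same group correlated at 0.997 or more in DMSO and at 0.998 or more in 1-Naphthol. A level below is the log2 processed intensity of a gene's brightest probe minus the 75th percentile of that array, so that 0 lies at this percentile and levels of different genes are not compared. All 13 hepatocyte markers were well above background on all 6 arrays, and none of them was called as changed. Markers of other liver cells were counted among those found on the array. Bright enough to test were 7 of 14 stellate and fibroblast genes, 4 of 15 macrophage genes and 3 of 10 endothelial genes. The same held for 4 of 10 bile duct genes and 2 of 13 lymphocyte genes. Some of these markers, among them Ptprc, Cd163, Clec4f, Pecam1, Krt19 and Lrat, were well above background on 0 of the 6 arrays. Others of the same lists, among them Cd3d, Cd68, Lyz2, Cdh5, Vwf, Prom1 and Des, were well above background on all 6. Of the markers tested, Sox9 was higher and Epcam lower with 1-naphthol in the bile duct list and Tagln was lower in the stellate list, and their part in the results was not tested. In whole cultures such as these, fewer cells of a type and less RNA per cell cannot be told apart.

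DMSO and 1-Naphthol share no slide. The 3 DMSO arrays were on slide 1 and the 3 1-Naphthol arrays on slide 2, so that slide and treatment cannot be told apart from these 6 arrays alone. 1,5-Naphthalenediol was the only group on both slides, with arrays 1 and 2 on slide 1 and array 3 on slide 2. Its array 3 minus the mean of its arrays 1 and 2 is called the slide difference here, and it also holds the ordinary spread between cultures. Over the 19783 genes tested, the median size of the slide difference was 0.10 on the log2 scale and its 95th percentile 0.57. Arrays 1 and 2 of 1,5-Naphthalenediol, which share a slide, differed by a median of 0.084 and a 95th percentile of 0.45. The change with 1-naphthol had a median size of 0.12 and a 95th percentile of 0.57, close to the slide difference. Across genes, change and slide difference had a Pearson r of 0.30 and a Spearman rho of 0.22, and 57.2% of genes had the same sign in both, although the 2 measures use different arrays.

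At a Benjamini-Hochberg adjusted p below 0.05 in limma, 4129 of 19783 genes (20.9%) differed between 1-Naphthol and DMSO, 2025 of them higher (10.2%) and 2104 lower (10.6%) with 1-naphthol. With each array scaled to its median in place of the 75th percentile, the same comparison gave 1454 higher and 3022 lower genes. The count fell to 3120 without DMSO array 1 and to between 1994 and 2607 without any other of the 6 arrays. The change was larger than the slide difference for 3697 called genes (18.7%), of which 1646 were higher (8.32%) and 2051 lower (10.4%). It was smaller than the slide difference for 432 called genes, 162 of them among the 644 genes called with a change of at least 1.5-fold. Genes with a symbol leaned lower, with 797 higher and 1479 lower among 10489 tested and a median change of -0.029.

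A stricter reading puts the slide into the model as a block, which subtracts the slide difference from each change and widens its error. It called 232 genes (1.17%), 114 higher and 118 lower, and 412 genes called without the block took the opposite sign with it. Genes called in the same direction both with and without the block numbered 180 (0.91%), 92 higher (0.465%) and 88 lower (0.445%), and they are referred to as called in both models. Of 173 genes called with a change of at least 2-fold, 142 exceeded the slide difference and 8 were called in both models. The number called in both models ranged from 35 to 348 when 1 array was left out, with the lowest value without 1,5-Naphthalenediol array 2, and was 49 to 119 without any 1 of the 1-Naphthol arrays.

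**Figure D1:**
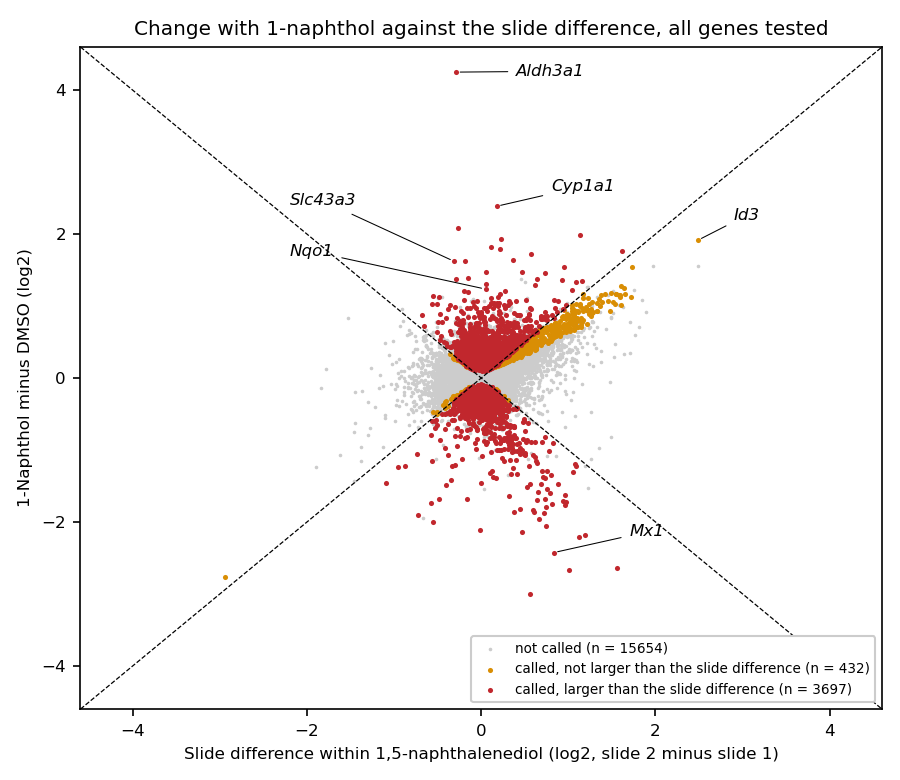
Each point is 1 of 19783 genes, with the slide difference within 1,5-Naphthalenediol on the x axis and the change with 1-naphthol on the y axis, both in log2. Outside the dashed diagonals, above and below the crossing, the change is larger than the slide difference; Aldh3a1, Cyp1a1, Slc43a3, Nqo1 and Mx1 lie there, and Id3 lies among the 432 called genes that do not exceed it.

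The AhR and its target genes were the list with the highest share of rises. Of 11 members tested, 7 were higher with 1-naphthol and 0 lower, beside 10.2% and 10.6% of all genes. Of the 7, 5 (Aldh3a1, Cyp1a1, Nqo1, Gsta2 and Ahr) were called in both models. All 7 exceeded the slide difference, beside 1646 of the 2025 called rises over all genes. The median change over the 11 was 0.37, beside -0.0039 over all genes tested. Arrays of the groups did not overlap for 8 of the 11 genes, beside 47% of all genes tested. With arrays scaled to their median, 7 were higher and 1 was lower.

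Aldh3a1, an aldehyde dehydrogenase that the AhR induces strongly in rat liver, had the largest rise of any gene tested. Its levels were -7.58, -7.56 and -7.51 on the DMSO arrays and -3.23, -3.33 and -3.34 on the 1-Naphthol arrays. The gene was well above background on 0 of 3 DMSO arrays and on 3 of 3 1-Naphthol arrays. The groups lay far apart, at a change of 4.25 ± 0.11 (SE, 3 arrays a group; adjusted p = 7.06e-10), which is at least 19.0-fold because DMSO gave only a bound. The slide difference was -0.29, and the change with the slide as a block was 4.54 (adjusted p = 4.18e-07). Over the other settings run, the gene stayed called but its change ranged from 1.8 to 4.54. The bound of 19.0-fold thus depends on the processing.

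Cyp1a1, the cytochrome P450 used most often as a readout of AhR activity, had levels of -0.39, -0.16 and -0.20 in DMSO and of 2.30, 2.02 and 2.09 in 1-Naphthol. Every 1-Naphthol array was above every DMSO array by a wide margin. The change was 2.39 ± 0.12, or 5.23-fold (adjusted p = 5.22e-07), beside a slide difference of 0.18, and it was 2.21 with the slide as a block (adjusted p = 0.00138). Cyp1a2, the related P450 of the normal liver, moved much less. Its levels were 0.028, 0.0087 and 0.078 in DMSO and 0.47, 0.40 and 0.35 in 1-Naphthol, a change of 0.37 ± 0.063 (adjusted p = 0.00356) that was 0.25 with the slide as a block (adjusted p = 0.249).

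Ahrr, the repressor that competes with the AhR for ARNT, was well above background on 0 of 3 DMSO arrays and on 3 of 3 1-Naphthol arrays. Its levels were -7.29, -7.39 and -8.74 in DMSO, where array 3 was the lowest, and -5.75, -6.26 and -6.02 in 1-Naphthol. The groups did not overlap and the rise was at least 2.89-fold (change 1.80 ± 0.39, adjusted p = 0.01), but it was not called with the slide as a block (1.58, adjusted p = 0.279). Over the other settings run, the change of Ahrr ranged from 0.236 to 2.06, so this bound depends on the processing. Ahr, the receptor itself, rose by less, from 0.42, 0.35 and 0.37 to 0.67, 0.67 and 0.70 (change 0.30 ± 0.053, adjusted p = 0.00407). Its partner Arnt and Cyp2s1, a further P450 of the list, were not called, with changes of 0.08 and -0.04.

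Nqo1, a quinone reductase that both the AhR and NRF2 control, had levels of -0.66, -0.59 and -0.73 in DMSO and of 0.54, 0.60 and 0.58 in 1-Naphthol. The arrays of each group lay close together, and the groups were separated by 1.24 ± 0.059, or 2.36-fold (adjusted p = 3.55e-07). The slide difference was 0.050 and the change with the slide as a block 1.19 (adjusted p = 0.00102). Gsta2, an alpha class glutathione transferase with binding sites for both factors in the rat, rose from 2.80, 2.83 and 2.77 to 3.59, 3.68 and 3.64. That is a change of 0.83 ± 0.071 (1.78-fold, adjusted p = 8.48e-05), with 0.69 under the block (adjusted p = 0.0306). Ugt1a6, the glucuronosyltransferase for simple phenols such as 1-naphthol and a known AhR target, gave probes that disagreed. Its brightest probe changed by -0.10 (adjusted p = 0.0912) and its other probe by 0.55 (adjusted p over probes = 0.00123), and the mean of the probes changed by 0.23 (adjusted p = 0.0106), so no direction is given.

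**Figure D2:**
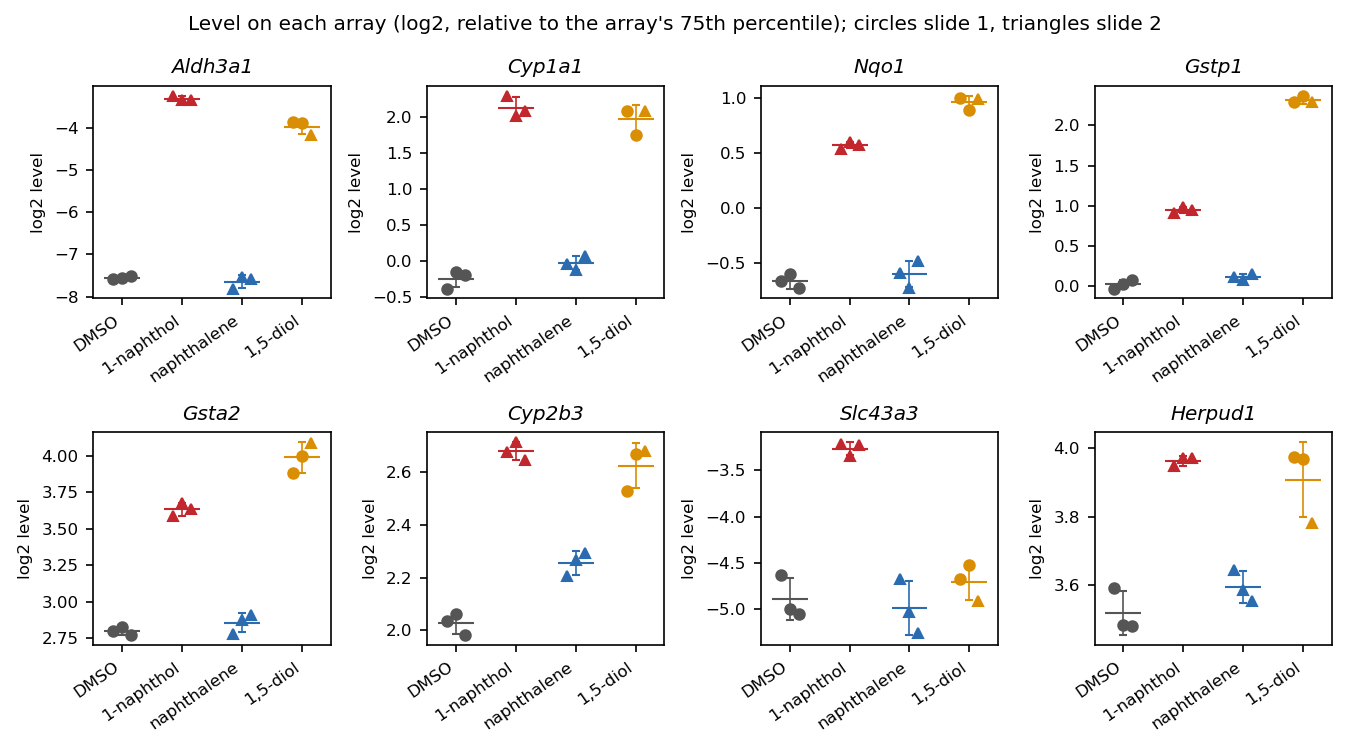
Log2 level of 8 genes on each array of DMSO, 1-naphthol, naphthalene and 1,5-naphthalenediol, with the group mean as a line and its SD as an error bar; circles are arrays on slide 1 and triangles arrays on slide 2, and each panel has its own y axis. In all 8 panels the 3 1-naphthol arrays lie above the 3 DMSO arrays and above the 3 naphthalene arrays, which were on the same slide, and for Nqo1 and Gstp1 the diol arrays on either slide lie close together.

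Promoters are shown for 4 of the AhR and NRF2 genes that rose, Ahrr, Nqo1, Gstp1 and Gsta2, from the RefSeq table of build GRCr8; they were chosen with their motifs known, and Cyp1a1 and Aldh3a1 are named only. Each runs from 250 bases before the start of the gene to 50 bases after it, 5′ to 3′ on the strand of the gene. Capitals mark GCGTG, the core of the sequence to which the AhR and ARNT bind, and TGACNNNGC, the core of the antioxidant response element to which NRF2 binds, on either strand. The windows are chr1:30821969-30822268 (plus strand) for Ahrr, chr19:52220218-52220517 (minus strand) for Nqo1, chr1:210769656-210769955 (minus strand) for Gstp1 and chr8:88077043-88077342 (minus strand) for Gsta2.
Ahrr: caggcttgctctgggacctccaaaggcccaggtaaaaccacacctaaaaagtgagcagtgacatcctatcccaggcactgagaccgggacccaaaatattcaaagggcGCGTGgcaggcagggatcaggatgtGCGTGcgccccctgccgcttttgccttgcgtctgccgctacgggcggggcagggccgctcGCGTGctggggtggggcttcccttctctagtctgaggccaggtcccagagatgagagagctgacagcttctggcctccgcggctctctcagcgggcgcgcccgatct
Nqo1: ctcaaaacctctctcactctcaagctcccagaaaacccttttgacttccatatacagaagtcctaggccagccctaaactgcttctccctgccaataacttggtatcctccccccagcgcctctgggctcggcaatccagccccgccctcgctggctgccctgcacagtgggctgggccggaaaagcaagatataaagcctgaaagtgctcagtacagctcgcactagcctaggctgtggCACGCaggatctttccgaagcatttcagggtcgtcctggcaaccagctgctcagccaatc
Gstp1: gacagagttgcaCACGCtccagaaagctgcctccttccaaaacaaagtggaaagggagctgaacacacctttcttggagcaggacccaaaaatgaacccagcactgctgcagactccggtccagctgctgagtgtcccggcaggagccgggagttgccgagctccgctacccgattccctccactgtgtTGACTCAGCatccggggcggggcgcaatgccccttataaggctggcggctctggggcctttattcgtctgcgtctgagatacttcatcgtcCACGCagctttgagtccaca
Gsta2: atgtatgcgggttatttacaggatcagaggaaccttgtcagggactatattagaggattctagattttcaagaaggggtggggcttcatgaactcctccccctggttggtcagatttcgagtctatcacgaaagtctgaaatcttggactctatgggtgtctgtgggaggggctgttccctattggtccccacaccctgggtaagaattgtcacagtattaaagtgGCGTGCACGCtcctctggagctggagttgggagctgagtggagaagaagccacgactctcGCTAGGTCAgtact
The Ahrr window holds GCGTG 3 times, at 142, 117 and 57 bases before the start, and the Nqo1 window holds it once, at 10 bases before the start. The Gstp1 and Gsta2 windows each hold GCGTG on 2 occasions and TGACNNNGC on 1, and in Gsta2 the pair of GCGTG cores, 24 and 19 bases before the start, lie side by side on opposite strands. GCGTG is common: it occurred in 29.7% of all 33469 promoters of that length and in 48.1% of the 8694 promoters of genes tested. It occurred in 31 of 49 promoters (63.3%) of genes higher in both models and in 31 of 60 (51.7%) of genes lower in both models. TGACNNNGC occurred in 14.6% of promoters of genes tested, 16.3% of the higher and 11.7% of the lower ones. A match says only that the letters are there.

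Genes of NRF2 and redox supply rose in part. Of 40 members tested, 12 were higher and 1 lower, beside 10.2% and 10.6% of all genes, with a median change of 0.093. Among the 40, 7, including Nqo1, Slc7a11, Akr1b8, Akr7a3, Aox1 and Abcc4, were called in both models. The call of Abcc4, an efflux pump, was lost without any 1 of 5 of the 6 arrays. With arrays scaled to their median, 8 were higher and 2 lower. Slc7a11, the transporter that brings in cystine for glutathione, had levels of -1.87, -2.01 and -1.99 in DMSO and of -1.34, -1.47 and -1.31 in 1-Naphthol, a change of 0.59 ± 0.079 (adjusted p = 0.00127). The other Slc7a11 probe changed by 0.15 (adjusted p over probes = 0.304), so its probes disagree in size. Akr1b8, an aldo-keto reductase, went from -2.03, -1.99 and -1.98 to -1.48, -1.49 and -1.49 (0.51 ± 0.047, adjusted p = 0.00014). Akr7a3, the rat aflatoxin aldehyde reductase, changed by 0.51 ± 0.045 (adjusted p = 0.000102). Groups of all 3 of these genes were apart on every array, and the arrays within a group lay close together.

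Other classical NRF2 targets did not follow. Gclc, the catalytic subunit of glutamate cysteine ligase, had levels of 0.86, 0.94 and 0.89 in DMSO and of 0.90, 0.89 and 0.86 in 1-Naphthol, which overlap (change -0.014, 95% interval -0.13 to 0.11). Txnrd1, thioredoxin reductase, changed by 0.10 (adjusted p = 0.373), and Srxn1, sulfiredoxin, by -0.22 (adjusted p = 0.0744). Hmox1, heme oxygenase and the most widely used marker of oxidative stress, fell from -0.69, -0.62 and -0.59 to -0.73, -1.04 and -0.90 (change -0.26 ± 0.069, adjusted p = 0.0219). Its groups were just apart, and the fall was not called with the slide as a block (-0.22, adjusted p = 0.381) or without DMSO array 2 or 3 or 1-Naphthol array 2 or 3. Nfe2l2, which encodes NRF2, was slightly higher (0.16 ± 0.045, adjusted p = 0.0282), and not called under the block (adjusted p = 0.291).

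Glutathione transferases, which attach glutathione to electrophiles, were higher for 7 and lower for 1 of 22 genes tested, beside 10.2% and 10.6% of all genes. Gstp1, the pi class form that is low in normal rat hepatocytes, rose from -0.025, 0.027 and 0.077 to 0.91, 0.99 and 0.95. The groups stood clearly apart, at 0.92 ± 0.042 or 1.90-fold (adjusted p = 3.29e-07), and the change under the block was 0.96 (adjusted p = 0.000619). The alpha class genes Gsta5 (0.58 ± 0.063, adjusted p = 0.000405) and Gsta3 (0.33 ± 0.046, adjusted p = 0.00152) also rose, but only Gstp1 and Gsta2 of the list were called in both models. Gstm3, of the mu class, fell by 0.44 (adjusted p = 0.0018), with a slide difference of -0.25. It was not called under the block (adjusted p = 0.217), and its other probe changed by -0.054 (adjusted p over probes = 0.492). Alpha and mu class genes have near-identical copies, and the arrays may not separate them.

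Of 25 glucuronidation and sulfation genes tested, 3 were higher (Ugt1a8, Sult2b1 and Ugdh) and 1 lower, beside 20.9% of all genes called. Ugt1a8, a glucuronosyltransferase, had the largest change of the list at 0.89 ± 0.25 (adjusted p = 0.0278), a call that was lost under the block (adjusted p = 0.476) and without DMSO array 3 or any 1 of the 1-Naphthol arrays. Sult1a1, the phenol sulfotransferase, had levels of 4.95, 4.92 and 4.93 in DMSO beside 4.85, 4.87 and 4.87 in 1-Naphthol (change -0.07, adjusted p = 0.189). Ugdh, which makes the activated glucuronic acid, rose by 0.25 ± 0.074 (adjusted p = 0.0366), but the call was lost under the block (adjusted p = 0.291) and without each of the 6 arrays in turn (adjusted p up to 0.104). Sult2b1 was called in both models, but its call too was lost without each of the 6 arrays in turn (adjusted p up to 0.0837). It was also lost with normexp, quantile or median scaling.

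Cytochromes P450 of families CYP2 and CYP3, with the receptors CAR and PXR that govern them, were higher for 11 and lower for 2 of 33 genes. The shares over all genes were 10.2% and 10.6%, and the median change of the list was 0.087. The split was 8 higher and 6 lower with arrays scaled to their median. Cyp2b3, a constitutive liver P450, rose from 2.04, 2.06 and 1.98 to 2.68, 2.71 and 2.65, which did not overlap (0.65 ± 0.048, 1.57-fold, adjusted p = 2.17e-05). Cyp2a1, a testosterone hydroxylase, changed by 0.44 ± 0.056 (adjusted p = 0.00112) and Cyp2c6v1 by 0.45 ± 0.062 (adjusted p = 0.00153). Nr1i3, which encodes CAR, changed by 0.41 ± 0.093 (adjusted p = 0.0121; 0.0509 without DMSO array 3), while Cyp3a23-3a1, the main PXR target, changed by -0.03 (adjusted p = 0.791). Cyp2b3, Cyp2a1 and Por, the P450 reductase, were called in both models.

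Among hepatic transporters, 4 of 32 were higher and 3 lower, near the shares over all genes (10.2% and 10.6%). Slc43a3, a carrier of purine nucleobases, stood out: its levels were -4.63, -4.99 and -5.04 in DMSO and -3.22, -3.35 and -3.23 in 1-Naphthol. The rise of 1.62 ± 0.15, or 3.08-fold (adjusted p = 0.000114), ran against a slide difference of -0.31 and was 1.93 under the block (adjusted p = 0.0075). Abcc2, the canalicular pump for glucuronide and glutathione conjugates, rose by 0.26 ± 0.051 (adjusted p = 0.00657) but was not called under the block (adjusted p = 0.3), and Abcc3, the basolateral one, changed by 0.09 (adjusted p = 0.403).

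Of 27 chaperones and degradation factors of the endoplasmic reticulum (ER), 10 were higher, 0 lower and 17 not called, with a median change of 0.078. Among all genes tested, 10.2% were higher and 10.6% lower. The rise exceeded the slide difference for 8 of the 10, beside 1646 of the 2025 called rises over all genes. Among the 10, 5 (Herpud1, Syvn1, Sdf2l1, Hyou1 and Edem1) were called in both models. The count of higher genes was 5 without DMSO array 2, DMSO array 3 or 1-Naphthol array 2, and 4 with median scaling. Herpud1, a component of the degradation complex, had levels of 3.59, 3.48 and 3.48 in DMSO and of 3.95, 3.97 and 3.97 in 1-Naphthol (0.45 ± 0.055, adjusted p = 0.000871). Syvn1, the ubiquitin ligase of that complex, went from 1.04, 1.03 and 1.08 to 1.41, 1.45 and 1.45 (0.38 ± 0.043, adjusted p = 0.000452). The best known members of the unfolded protein response were not called: Hspa5, the chaperone BiP, changed by 0.08 (adjusted p = 0.224) and Ddit3, the factor CHOP, by 0.06 (adjusted p = 0.77).

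Targets of ATF4, which responds to amino acid shortage, were higher for 4 and lower for 6 of 33, beside 10.2% and 10.6% of all genes. Gdf15, a secreted stress signal, rose by 0.47 ± 0.12 (adjusted p = 0.0188), and Nupr1, a chromatin-associated stress protein, fell by 0.38 (adjusted p = 0.00238). Neither was called under the block (adjusted p = 0.381 and 0.184), and Gdf15 was also lost without DMSO array 2, DMSO array 3 or 1-Naphthol array 3 (adjusted p up to 0.0737). Heat shock genes were higher for 3 and lower for 4 of 21, beside the same shares of all genes. Hspb1, the small heat shock protein HSP27, rose from -0.080, -0.080 and -0.13 to 0.74, 0.64 and 0.44 (0.71 ± 0.10, 1.63-fold, adjusted p = 0.00162), and Dnaja1, a co-chaperone of HSP70, fell from 0.97, 1.09 and 1.03 to 0.58, 0.56 and 0.50 (adjusted p = 0.000601). Hspb1 was called in both models and Dnaja1 was not (adjusted p = 0.0735).

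The remaining large rises were mostly of genes near background. A gene dim in DMSO was tested only because another group had all 3 of its arrays well above background. The filter thus partly sets this pattern, for Aldh3a1 and Ahrr above as well. Tmem117, a membrane protein, had levels of -7.91, -7.54 and -8.02 in DMSO, where 0 of 3 arrays were well above background, and of -5.92, -5.82 and -5.93 in 1-Naphthol. It rose at least 3.75-fold (adjusted p = 0.000898), and was not called with the slide as a block (adjusted p = 0.0804). Its change ranged from 0.391 to 2.07 over the other settings run, so this bound depends on the processing. Cimap2, Srrm4, Syt9, Scn4b, Myadml2, Timp4 and Hsd3b1 were likewise well above background on 0 DMSO arrays, with rises of at least 1.75-fold to at least 2.50-fold, and none of them was called with the slide as a block. The calls of Syt9, Scn4b, Timp4 and Hsd3b1 were also lost without 1 or another of the 6 arrays. With normexp background correction, the calls of Cimap2, Srrm4, Syt9, Scn4b, Myadml2 and Timp4 were lost. The lowest change over all settings was 0.037 for Myadml2 and 0.21 for Cimap2, with the other 4 between them. Or8h7, an olfactory receptor, changed by 1.04 (adjusted p = 0.0061), but was not called with the slide as a block (adjusted p = 0.32). The lowest change of Or8h7 over the settings run was 0.225. Mgarp was well above background on no array of either group, so it has no fold. The call of Mgarp was lost under the block, with normexp, and without DMSO array 1 or 2 or 1-Naphthol array 3. Ppara, the receptor for fatty acids, was well above background throughout and rose from -2.38, -2.42 and -2.43 to -1.86, -1.68 and -1.80 (0.63 ± 0.076, adjusted p = 0.00077), with 0.86 under the block (adjusted p = 0.00942). Of the 40 genes of PPAR-alpha and fatty acid oxidation, 2 were higher (Ppara and Cyp4a8) and 6 lower, beside 10.2% and 10.6% of all genes. The other Cyp4a8 probes changed by 0.047 and 0.092.

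Interferon-stimulated genes were lower with 1-naphthol as a group, and they varied more within a group than genes did at the median. Of 43 tested, 35 were lower and 0 higher, beside 10.6% lower and 10.2% higher of all genes. The median change was -0.95, beside -0.0039 over all genes. All 35 exceeded the slide difference, as did 2051 of the 2104 called falls over all genes. The median SD among DMSO arrays was 0.33 for these genes and 0.068 over all genes, and among 1-Naphthol arrays it was 0.28 beside 0.059. Mx1, an antiviral GTPase, had levels of -0.0049, 2.05 and 1.60 in DMSO and of -0.89, -1.01 and -1.73 in 1-Naphthol. The groups did not overlap, but DMSO array 1 lay nearer to the 1-Naphthol arrays than to the other DMSO arrays. The change was -2.43 ± 0.46, or 5.37-fold lower (adjusted p = 0.00533), and it was not called with the slide as a block (-3.26, adjusted p = 0.0735).

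The same order of arrays ran through the list. DMSO array 1 was the lowest of the 3 for 38 of the 43 genes, and 1-Naphthol array 3 was the lowest of its 3 for 39. The mean of the 43 genes, relative to their mean over all 15 arrays, was 0.29, 1.02 and 0.87 on the DMSO arrays and -0.30, 0.071 and -0.60 on the 1-Naphthol arrays. The other 9 arrays lay between -0.67 and 0.12. All 3 DMSO arrays thus lay above every other array, arrays 2 and 3 by the most. For 40 of the 43 genes, DMSO array 1 was higher than the mean of 1-Naphthol. The slide difference of the list ran the other way, with a median of 0.36, and the median change under the block was -1.28. Of the 43 genes, only Gbp5, a guanylate-binding protein, was called with the slide as a block (-1.20, adjusted p = 0.0304). Without DMSO array 2 or DMSO array 3 the count of lower genes was 20, and without 1-Naphthol array 3 it was 17.

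Isg15, a ubiquitin-like modifier, fell from 4.08, 5.22 and 4.86 to 3.15, 3.37 and 2.47 (change -1.73 ± 0.43, adjusted p = 0.0177), a call lost under the block and without DMSO array 2 or 3 or 1-Naphthol array 3. Ifit3, an inhibitor of viral translation, had levels of -1.48, 1.26 and 1.38 in DMSO and of -2.87, -1.10 and -3.86 in 1-Naphthol, and its groups overlapped even though it was called (adjusted p = 0.0275). Oasl2, Oasl, Cmpk2, Usp18, Ifi47, Sp100, Spats2l, Ifgga2l1, Trim30d and Zfp365 were among the 15 largest falls without overlap, at 2.86-fold to 4.55-fold lower, and had the same order, with DMSO array 1 the lowest of the DMSO arrays. Of these, Ifi47, Sp100 and Zfp365 stayed called whichever of the 6 arrays was removed, and the others did not. Sp100, a nuclear body protein outside the list of 43, was called in both models (-2.59 under the block, adjusted p = 0.0471). Against Naphthalene, whose arrays share the slide of 1-Naphthol, 0 of the 43 list members were called in either direction, and the median difference was -0.0027.

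**Figure D3:**
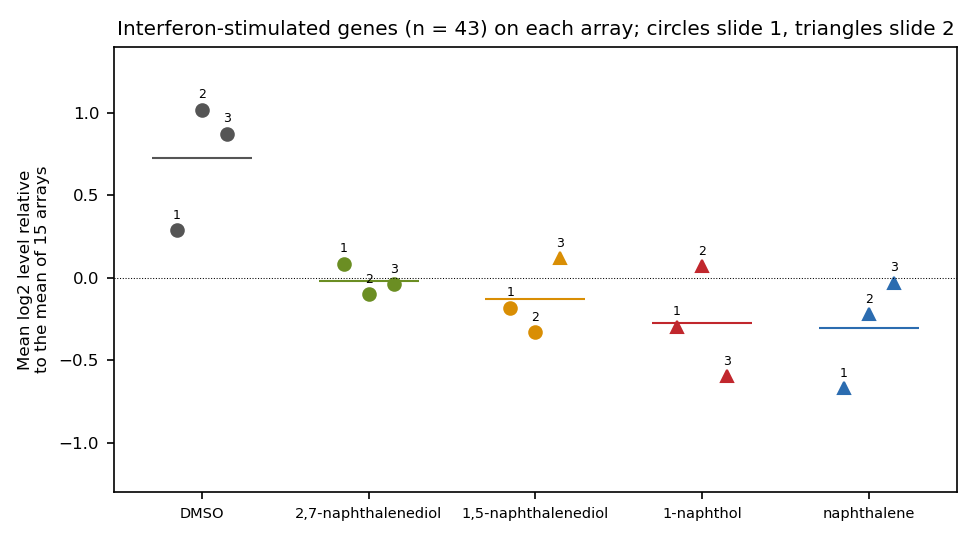
Mean log2 level of 43 interferon-stimulated genes on each of the 15 arrays, relative to their mean over all arrays, by group, with the array number beside each point and the group mean as a line; circles are slide 1 and triangles slide 2. DMSO arrays 2 and 3, at 1.02 and 0.87, lie above all other arrays, DMSO array 1 is at 0.29, and the 3 1-naphthol arrays lie between -0.60 and 0.071.

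Nptx1, a secreted pentraxin, was well above background on 3 of 3 DMSO arrays and 0 of 3 1-Naphthol arrays, at least 3.35-fold lower (adjusted p = 0.006), and Avpr2, a vasopressin receptor, likewise at least 2.75-fold lower (adjusted p = 0.00317). Neither was called with the slide as a block, and the slide difference of Avpr2 was -1.09. The smallest change over the settings run was -0.295 for Nptx1 and -0.365 for Avpr2, so these bounds depend on the processing. Both genes entered the test through a group in which they were bright. Vil1, the actin bundler of microvilli, went from -4.25, -4.15 and -4.28 to -5.03, -5.06 and -5.06. Its groups were tight and apart, at -0.82 ± 0.083 or 1.77-fold lower (adjusted p = 0.000245), and it was called in both models. Pfkp, the platelet form of phosphofructokinase, fell from -2.21, -1.99 and -2.15 to -2.87, -2.96 and -3.08 (adjusted p = 0.00182) and was called in both models.

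Several metabolic and signalling lists leaned downwards. Cholesterol synthesis and uptake genes were lower for 10 and higher for 0 of 27, with a median change of -0.093. Cyp51, a sterol demethylase, changed by -0.41 ± 0.053 (adjusted p = 0.00115), and Fdps, which makes farnesyl diphosphate, by -0.28 ± 0.041 (adjusted p = 0.0018). Neither was called under the block. Immediate early and growth signal genes were lower for 10 and higher for 3 of 26, with Klf10, a TGF-beta response factor, falling from 0.85, 0.86 and 0.90 to 0.38, 0.39 and 0.28 (adjusted p = 0.000257). Glycolysis and hypoxia genes were lower for 10 and higher for 3 of 33. All of these lists exceeded the background share of 10.6% lower, and 0 cholesterol genes, 0 immediate early genes and 1 glycolysis gene (Pfkp) were called in both models. The gene lists hold only genes with a symbol, of which 1479 of 10489 were lower.

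The counts that follow stand beside shares of 10.2% higher and 10.6% lower over all genes. Lists with shares nearer to these were oxidative phosphorylation (0 higher and 7 lower of 45), proteasome subunits (1 and 3 of 32) and p53 targets (3 and 4 of 21). The cell cycle (3 and 3 of 27), fatty acid synthesis (4 and 4 of 30) and the circadian clock (2 and 1 of 14) were likewise nearer. Metal and heme handling genes were higher for 6 and lower for 5 of 24, among the higher ones Alas1, the first enzyme of heme synthesis (0.30 ± 0.065, adjusted p = 0.00953), and Mt2A, a metallothionein (0.25 ± 0.043, adjusted p = 0.0037). Neither was called under the block (adjusted p = 0.078 and 0.139). Bile acid genes were higher for 6 and lower for 2 of 24, among the higher ones Nr1h4, the bile acid receptor FXR (0.31 ± 0.048, adjusted p = 0.00229), which was not called under the block (adjusted p = 0.196). Hepatocyte function and identity genes were higher for 5 and lower for 0 of 36, and this direction turned to 1 higher and 6 lower with arrays scaled to their median. Acute phase and inflammation genes were higher for 1 (Socs3) and lower for 5 of 31.

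**Figure D4:**
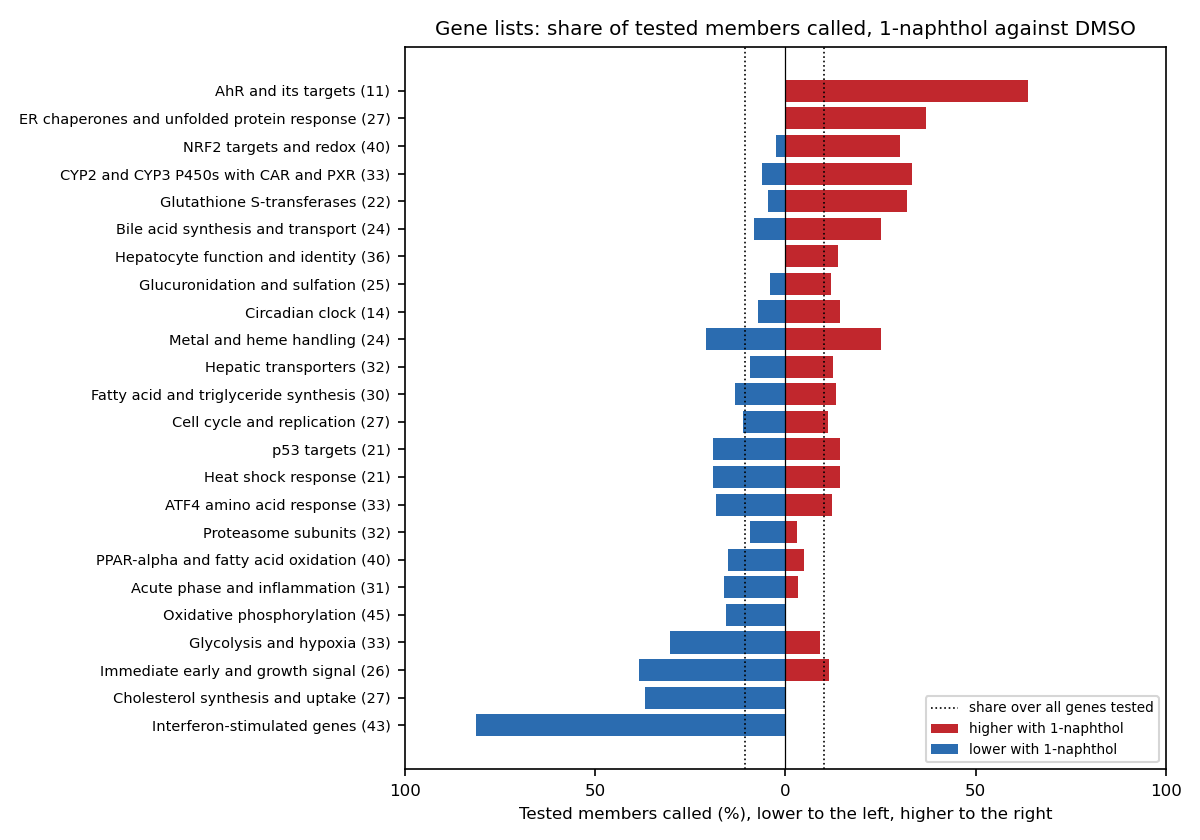
Share of the tested members of each gene list that were called lower (left, blue) or higher (right, red) with 1-naphthol against DMSO, with the number of members tested in brackets and the shares over all genes tested (10.6% lower, 10.2% higher) as dotted lines. AhR targets, with 7 of 11 higher, and interferon-stimulated genes, with 35 of 43 lower, lie at the ends. List members all have a symbol, and over the 10489 such genes 797 were higher and 1479 lower.

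Some called changes did not exceed the slide difference. Id3, an inhibitor of basic helix-loop-helix factors, had levels of -7.66, -6.96 and -7.77 in DMSO and of -5.68, -5.58 and -5.39 in 1-Naphthol, at a change of 1.91 (adjusted p = 0.042). Within 1,5-Naphthalenediol it was -7.66 and -7.92 on slide 1 and -5.31 on slide 2, a slide difference of 2.48. The values of Id3 thus went with the slide in both groups, and the change under the block was -0.57 (adjusted p = 0.712). Slc31a1, a copper transporter, and Cox6c-ps1, Lct, Ppp1r14bl and Cox7c, the other largest changes of this kind, rose by 0.82 to 1.25 against slide differences of 0.93 to 1.64, and all of them turned to a fall that was not called under the block.

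Naphthalene differs from 1-naphthol by the hydroxyl group, and its 3 arrays shared a slide with the 1-Naphthol arrays. Of 19783 genes, 483 differed between them (2.44%), 206 higher (1.04%) and 277 lower (1.4%) with 1-naphthol. With arrays scaled to their median the split was 304 higher and 144 lower, and with normexp background correction it was 221 and 574. When the spread was taken from these 6 arrays alone 53 genes were called, and without any 1 of the 6 arrays between 176 and 476. Levels in Naphthalene were close to DMSO for the genes that rose most: -7.81, -7.54 and -7.58 for Aldh3a1 and -0.040, -0.13 and 0.063 for Cyp1a1. 1-Naphthol was above Naphthalene by 4.34 ± 0.11 for Aldh3a1 (adjusted p = 5.46e-10), by 2.17 ± 0.12 for Cyp1a1 (adjusted p = 1.87e-06) and by 1.17 ± 0.059 for Nqo1 (adjusted p = 1.16e-06). Ahrr, at 1.49, was not called (adjusted p = 0.0718).

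Other leading rises were also present in the same-slide comparison. It uses the same 1-Naphthol arrays as the comparison with DMSO, so the results of these comparisons are not independent. Gstp1 was 0.83 ± 0.042 above Naphthalene (adjusted p = 1.16e-06), Gsta2 0.78 ± 0.071 (adjusted p = 0.000216), Slc43a3 1.72 ± 0.15 (adjusted p = 0.000114) and Tmem117 2.33 ± 0.24 (adjusted p = 0.000434). Cyp2b3, Slc7a11, Akr1b8, Akr7a3, Hspb1 and Herpud1 were higher than in Naphthalene by 0.37 to 0.63, each with an adjusted p below 0.05. By list, 4 of 11 AhR genes, 9 of 40 NRF2 genes, 6 of 22 glutathione transferases, 6 of 27 ER genes and 5 of 33 CYP2 and CYP3 genes were higher, and of these lists only the transferases had a lower member (Gstm3). Vil1 was lower than in Naphthalene by -0.83 ± 0.083 (adjusted p = 0.000401), as were Slco3a1, an organic anion carrier (-0.74, adjusted p = 0.00244), and Epcam, an adhesion molecule (-0.45, adjusted p = 0.00783). Nr1i3, Ppara and Gdf15 had differences of 0.07, 0.23 and -0.09 that were not called.

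**Figure D5:**
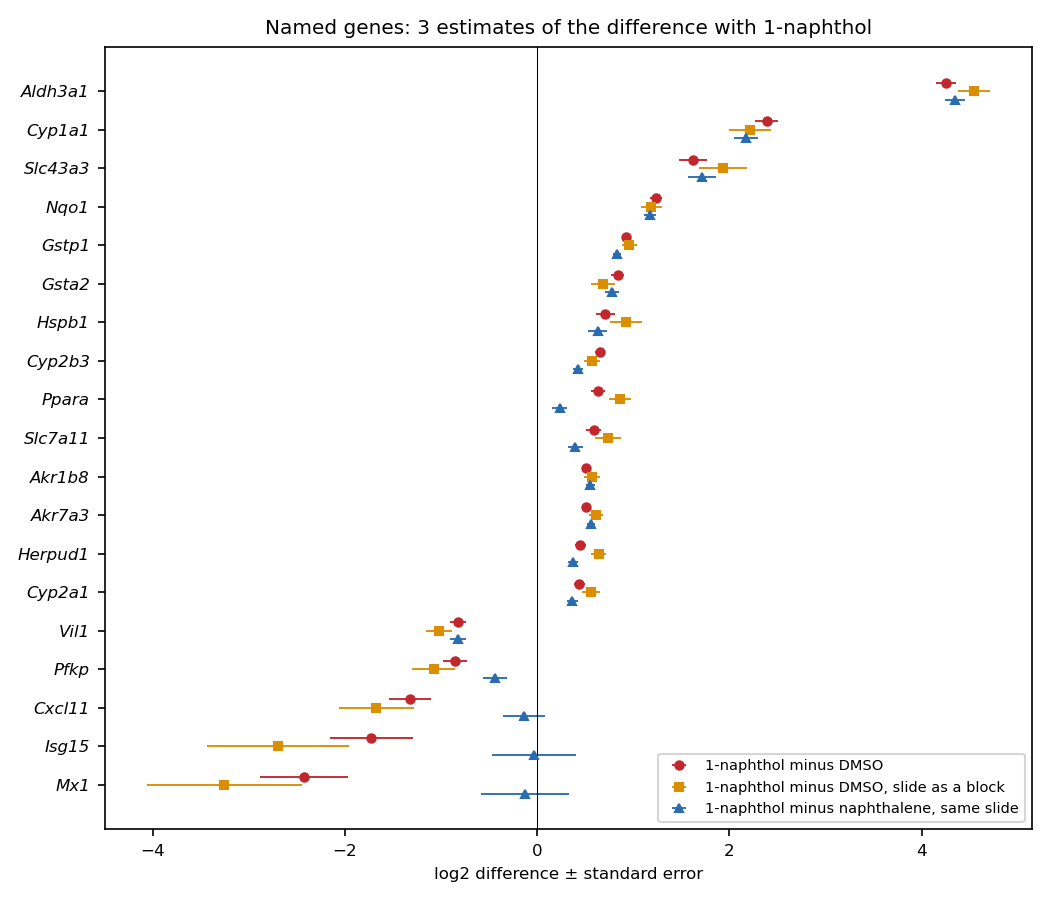
Log2 difference with its standard error for 19 named genes: 1-naphthol minus DMSO (red circles), the same with the slide as a block (orange squares) and 1-naphthol minus naphthalene on a shared slide (blue triangles). From Aldh3a1 to Nqo1 all 3 values lie at or above 1.17, for Vil1 they lie between -1.02 and -0.82, and for Isg15 and Mx1 the value against naphthalene lies near 0.

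1,5-Naphthalenediol carries a further hydroxyl group and has 1 array on the slide of 1-Naphthol. Of 19783 genes, 1825 differed from it (9.23%), 959 higher (4.85%) and 866 lower (4.38%) with 1-naphthol. The count was 371 with the slide as a block, 451 when the spread came from the 6 arrays alone, 3409 without 1,5-Naphthalenediol array 3, and 694 to 848 without any 1 of the other 5 arrays. Of 11 AhR genes, 2 were higher and 2 lower with 1-Naphthol than with the diol. Cyp1a1 was not called: it had levels of 2.08, 1.75 and 2.09 with the diol, and 1-Naphthol differed by 0.16, with a 95% interval of -0.10 to 0.43. Aldh3a1 was 0.67 ± 0.11 higher with 1-Naphthol (adjusted p = 0.00291), and 0.86 higher under the block (adjusted p = 0.0109). Nqo1 and Gsta2 were lower than with the diol, by -0.39 (adjusted p = 0.00234) and -0.36 (adjusted p = 0.0116).

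Some genes of NRF2, glutathione transfer and the heat shock response were lower with 1-Naphthol than with the diol, and most members of these lists were not called. Gstp1 had levels of 2.28, 2.37 and 2.29 with the diol (difference -1.36 ± 0.042, adjusted p = 9.88e-09). Akr1b8 was at -0.33, -0.24 and -0.34 with the diol (difference -1.19 ± 0.047, adjusted p = 4.07e-08), and Hspb1 at 2.76, 2.43 and 2.38 (difference -1.92 ± 0.10, adjusted p = 5.48e-07). All 3 diol arrays of each gene, on either slide, lay above every 1-Naphthol array. Uchl1, a ubiquitin hydrolase, was not called against DMSO (change 0.012) and was lower than with the diol by -1.58 (adjusted p = 1.06e-08). By list, 11 of 40 NRF2 genes were lower than with the diol and 1 higher, as were 4 and 1 of 22 glutathione transferases and 8 and 1 of 21 heat shock genes. Of 32 proteasome genes 8 were lower and 0 higher, of 27 cell cycle genes 15 and 0, and of 27 cholesterol genes 0 and 11. Slc43a3 and Slc7a11 went the other way, above the diol by 1.43 ± 0.15 (adjusted p = 0.000201) and 0.46 ± 0.079 (adjusted p = 0.00494). Cyp2b3 and Herpud1 differed from the diol by 0.054 and 0.055, with 95% intervals of -0.051 to 0.16 and -0.065 to 0.17.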

How the data were processed

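RNA of 15 cultures was hybridised to 1-colour Agilent rat arrays. Per the file headers, Agilent Feature Extraction 10.7.1.1 made the deposited intensities, subtracting background and detrending, without scaling between arrays. From these, log2 intensities were computed from the authors' processed signal, minus the 75th percentile of each array over gene spots, without control spots and outlier flags. Probes were kept if some group had all 3 of its arrays well above background, and a gene was read from its brightest probe. Symbols came from RefSeq (GRCr8), and 9294 of 19783 genes had an accession only. The slide is the array slide that the labels or headers give.

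limma 3.58.1 (R 4.3.3) was fitted over all 15 arrays with lmFit and eBayes and tested on simulated data. A gene was called at a Benjamini-Hochberg adjusted p below 0.05, and ± is the standard error. "At least N-fold" is used for genes not well above background on any array of the dimmer group, and sets the brighter group against, per array, the higher of the lowest signal well above background and the own signal of the dim gene. The number of arrays limits the precision. Named genes were key genes, the 15 largest non-overlapping rises and falls beyond the slide difference, the 6 largest called changes not beyond it, up to 5 called genes of each list and the 6 furthest from each related compound. Ahr, Aox1, Arnt, Cyp2s1, Edem1, Gbp5, Nfe2l2 and Por fall outside this rule and were chosen after their values were seen. The comparison, the lists and the tests were chosen with earlier results of these data known. Same-numbered arrays were not paired, as their deviations had correlations of -0.044, 0.077 and -0.099. Alternatives covered the slide as a block, background correction, scaling, filters, probe choice, the spread and leaving out each array. The mean signal was not used here, so the normexp alternative took the median signal.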

Additional observations from a re-analysis of the deposited data

How the results depend on the processing

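The count of genes differing from DMSO (4129) was 232 with the slide as a fixed block, 1427 as a random block and 1966 without the filter on dim probes, where 38995 genes were tested, and it ranged from 1994 to 3120 with 1 array left out. Those beyond the slide difference (3697) numbered 1897 without that filter and 1938 to 3650 with 1 array left out. Those called in both models (180) numbered 325 with normexp, 97 with median scaling, 29 without the filter and 35 to 348 with 1 array left out. The count against Naphthalene (483) was 53 from the 2 groups alone, 795 with normexp, 142 without the filter, 848 with a trended, robust spread and 176 to 476 with 1 array left out. The count against 1,5-Naphthalenediol (1825) was 371 with the fixed block, 897 with the random block, 451 from the 2 groups alone, 572 without the filter and 694 to 3409 with 1 array left out. Where an array was left out, the spread came from all remaining arrays. Median scaling shifted the median change over all genes to -0.0505 and turned the split of calls against DMSO from 49% to 32.5% higher and against Naphthalene from 42.7% to 67.9% higher, and normexp gave 27.8% there. Ugt1a6 turned to 0.227 with the mean of its probes, whose disagreement shows in the values above. Id3 (-0.572), Slc31a1 (-0.39), Cox6c-ps1 (-0.387), Lct (-0.0659), Ppp1r14bl (-0.0857) and Cox7c (-0.264) turned sign with the fixed block, which subtracts the slide difference. For the other changes in count the cause was not tested.

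Array numbers share no stated pairing, and only 1 of 3 1-Naphthol arrays correlated best with its own number. With the replicate number as a block, 3721 genes differed from DMSO, 412 from Naphthalene and 1527 from 1,5-Naphthalenediol. Of 148 called named genes, 23 were called under every setting run, 75 under every one other than the slide block and 86 whichever array was left out. The slide difference rests on 1 array against 2, so it holds the spread of single cultures, and genes near background have only bounds.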
